A study of Mus musculus with 4 samples.

Results

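The volume-regulated anion channel is built from the LRRC8 proteins, which the mouse genes Lrrc8a, Lrrc8b, Lrrc8c, Lrrc8d and Lrrc8e encode. These 5 genes were taken by symbol from the 51905 genes in the deposited tables, because the level of Lrrc8a was higher with Aurora-A knockdown in both cell lines examined. The knockdown values of the 5 genes are therefore a description and carry no test. RNA-seq was performed on CT26 and MC38, mouse colon cancer lines labelled as genotype WT from colon. Each line had been infected with lenti-shGFP, the control, or with lenti-shmaurka-1, a single short hairpin against Aurora-A, and RNA was collected 48 h after seeding. Infected cells had been selected with puromycin as populations. There was 1 library for each of the 4 combinations of line and hairpin, and differences between hairpins in 1 line are thus unreplicated. CT26 cells were grown in RPMI-1640 and MC38 cells in high glucose DMEM with HEPES and non-essential amino acids, so the line and its medium cannot be told apart. All libraries were from bulk cells, in which fewer cells expressing a gene and less RNA per cell cannot be told apart.

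The channel opens when a cell swells and lets chloride and small organic molecules out, so that water follows and the volume is restored. LRRC8A is the obligatory subunit, and it assembles with at least one of LRRC8B to LRRC8E to form a channel with normal properties. The partner sets what passes: LRRC8D favours uncharged osmolytes and the drug cisplatin, and channels with LRRC8A together with LRRC8C or LRRC8E carry the immune messenger cGAMP between cells. Levels of RNA do not give the make-up of the channels in the membrane.

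The upstream sequences of Lrrc8a and Lrrc8e are shown, since Lrrc8a was the member above 1.5-fold with the knockdown hairpin and Lrrc8e had at most 1 fragment in CT26. Each run is the 250 bases before the start site, from RefSeq on GRCm38.p6, plus strand, with capitals marking a cyclic AMP response element (CRE, TGACGTCA), an E-box (CACGTG) or a GC box (GGGCGG) on either strand. Lrrc8a lies at chr2:30237519-30237768 and Lrrc8e at chr8:4226577-4226826. RefSeq places the whole Lrrc8e gene at 4224268 to 4237470, so its window lies inside that extent. The Lrrc8e run is upstream of the start site listed for its promoter, not of the whole gene.
Lrrc8a: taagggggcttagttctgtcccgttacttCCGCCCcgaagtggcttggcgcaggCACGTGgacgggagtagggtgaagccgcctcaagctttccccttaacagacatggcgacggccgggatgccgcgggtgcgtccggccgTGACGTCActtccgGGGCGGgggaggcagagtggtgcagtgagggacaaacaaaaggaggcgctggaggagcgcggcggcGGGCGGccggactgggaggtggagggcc
Lrrc8e: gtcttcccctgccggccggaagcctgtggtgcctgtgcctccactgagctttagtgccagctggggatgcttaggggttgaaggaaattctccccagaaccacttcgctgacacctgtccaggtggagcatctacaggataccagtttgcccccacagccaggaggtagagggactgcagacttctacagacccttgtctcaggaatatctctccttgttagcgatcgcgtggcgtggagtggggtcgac

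The Lrrc8a window held 1 CRE, which began 108 bases upstream of the start site, 1 E-box 196 bases upstream and 3 GC boxes. The Lrrc8e window held none of these letters. Over 300 bases that run from 250 before to 50 after the start, a CRE was found in 1.79%, an E-box in 7.15% and a GC box in 35.7% of the 32851 promoters in the RefSeq table. Over the same 300 bases every member held a GC box. Lrrc8a held 4, Lrrc8b 2, Lrrc8c 2, the Lrrc8d promoters 1 and 2, and Lrrc8e 1, which began 40 bases downstream of the start site. A search on both strands for TGANTCA (AP-1), CCAAT and TTTGAA (the cell cycle homology region) found none of them at Lrrc8a or Lrrc8e, and these letters occur in 7.81%, 37.4% and 17.9% of all promoters. The Lrrc8b promoter held 1 TGANTCA and 1 CCAAT, and 1 of the Lrrc8d promoters held a CCAAT. The members also differed in CpG number over the same 300 bases. Lrrc8e had 14 CpG, whereas Lrrc8a had 32, Lrrc8b 51, Lrrc8c 44 and the Lrrc8d promoters 31 and 27, beside a median of 7 over all promoters. A match of letters is a description of the sequence and was not tied to binding of any factor.

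The depth of the libraries was close, from 22207768 to 23752269 fragments, and the deepest held 1.07 times the fragments of the shallowest. The targeted gene followed its labels. Aurka, the gene of Aurora-A, was read from 5724 fragments in the CT26 control and 1093 in its knockdown, a log2 fold change of -2.26 with a 95% counting interval of -2.36 to -2.17. For MC38 the fragments numbered 2300 and 413, a log2 fold change of -2.44 with an interval of -2.60 to -2.29. The labelled cell type is Fibroblast for CT26 and Epithelial cell for MC38. The 10 epithelial markers summed to between 0.987 and 1.29 FPKM in the MC38 libraries and to between 42.7 and 42.9 FPKM in the CT26 libraries. Krt18 (33.7 and 37.4 FPKM) and Krt20 (8.45 and 4.41 FPKM) made up nearly all of the CT26 sum, and the other 8 were each at or under 0.408 FPKM there. No epithelial marker was above 0.581 FPKM in the MC38 libraries, and Epcam was listed at 0 in both shGFP libraries and at or under 0.0242 FPKM in the others. The epithelial label of MC38 is therefore not borne out by these markers. The 10 fibroblast and mesenchymal markers summed to between 572 and 930 FPKM, led by Vim (241 to 383 FPKM) and Fn1 (227 to 397 FPKM), and the 6 leukocyte and endothelial markers to between 0.483 and 1.70 FPKM, led by Cdh5 and Pecam1, of which Cdh5 was highest at 1.20 FPKM in MC38 shGFP.

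Lrrc8a, the obligatory subunit, was nearly doubled in the knockdown library of each line. Its level was 10.3 FPKM with shGFP and 19.6 FPKM with shmaurka-1 in CT26, and 4.81 and 9.15 FPKM with the same hairpins in MC38. The knockdown library was the higher in both lines, yet MC38 with the knockdown remained under CT26 without it. In fragments, the values were 1265 and 2106 in CT26 and 699 and 1308 in MC38. The fold change of the scaled counts was 1.81 in CT26, a log2 value of 0.86 with a 95% counting interval of 0.76 to 0.96. In MC38 it was 1.91, a log2 value of 0.94 with an interval of 0.80 to 1.07. Such an interval compares the 2 libraries and covers counting error only. No other member passed 1.5-fold in either line. Of the 11928 genes whose mean count reached 10 in both lines, the share above 1.5-fold was 3.25% for CT26, 2.55% for MC38 and 0.394% for the lines jointly, and nothing is read from this for Lrrc8a, which was chosen on the same values. No member was below 0.6-fold, where 2.55% of genes stood in CT26, 1.01% in MC38 and 0.168% in both. The median log2 fold change over these genes was -0.0015 in CT26 and 0.0037 in MC38.

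**Figure D1:**
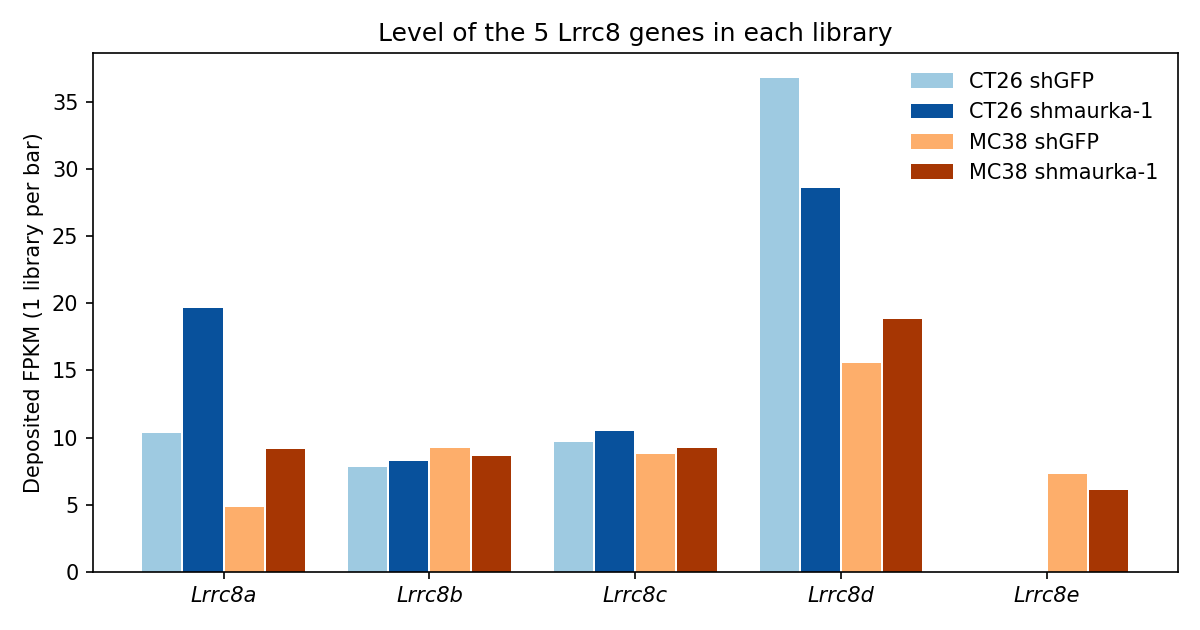
Level of each Lrrc8 gene in deposited FPKM (vertical axis) in the 4 libraries, 1 library per bar, with light bars for shGFP and dark bars for shmaurka-1. The Lrrc8a bar was the higher in the knockdown library of both lines (10.3 and 19.6 FPKM in CT26, 4.81 and 9.15 in MC38), and Lrrc8e was visible only in the MC38 libraries.

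Lrrc8b and Lrrc8c lie beside Lrrc8d on chromosome 5, within 400010 bases. Lrrc8b, a partner that does not form channels without LRRC8A, had 7.78 and 8.27 FPKM in the control and knockdown libraries of CT26 and 9.24 and 8.63 FPKM in those of MC38. The 4 values were close and the knockdown library was higher in CT26 and lower in MC38. Its log2 fold changes were 0.09 in CT26 (counting interval -0.05 to 0.23) and -0.10 in MC38 (-0.22 to 0.02), so both intervals spanned 0.

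Lrrc8c, a partner well known in endothelial and T cells, had 9.64 and 10.5 FPKM in the CT26 libraries and 8.77 and 9.22 FPKM in the MC38 libraries. By FPKM it was slightly higher with the knockdown in both lines. By counts the MC38 libraries went the other way, from 1164 to 937 fragments, a log2 fold change of -0.28 with an interval of -0.40 to -0.15, against 0.07 by FPKM. The count that stood for 1 FPKM was 117 in MC38 shGFP and 91.5 in MC38 shmaurka-1, so the length behind the FPKM differed between the libraries. Only 2.24% of the 11926 genes with both values had scales at least this far apart in MC38. The direction of Lrrc8c in MC38 therefore depends on the scale. In CT26 its log2 fold change was 0.07 by counts (-0.06 to 0.21) and 0.12 by FPKM.

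Lrrc8d, the partner tied to osmolyte and cisplatin passage, had the highest FPKM of the 5 genes in every library. It had 36.8 and 28.6 FPKM in the control and knockdown libraries of CT26 and 15.5 and 18.8 FPKM in those of MC38. The knockdown library was thus the lower in CT26 and the higher in MC38. The log2 fold change by counts was -0.24 in CT26 (-0.32 to -0.15) and 0.12 in MC38 (0.02 to 0.23), and by FPKM it was -0.37 and 0.28. This contrast of the lines carries no test, because each rests on 1 pair of libraries.

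Lrrc8e, a partner found in a narrower range of tissues, was read from 1 fragment in CT26 with shGFP and from 0 with shmaurka-1. A count of 0 allows up to 3 fragments in such a library. In MC38 it had 752 and 612 fragments, or 7.29 and 6.09 FPKM, and the log2 fold change was -0.26 with an interval of -0.42 to -0.11. No fold change is given for CT26, where both libraries were under the floor.

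**Figure D2:**
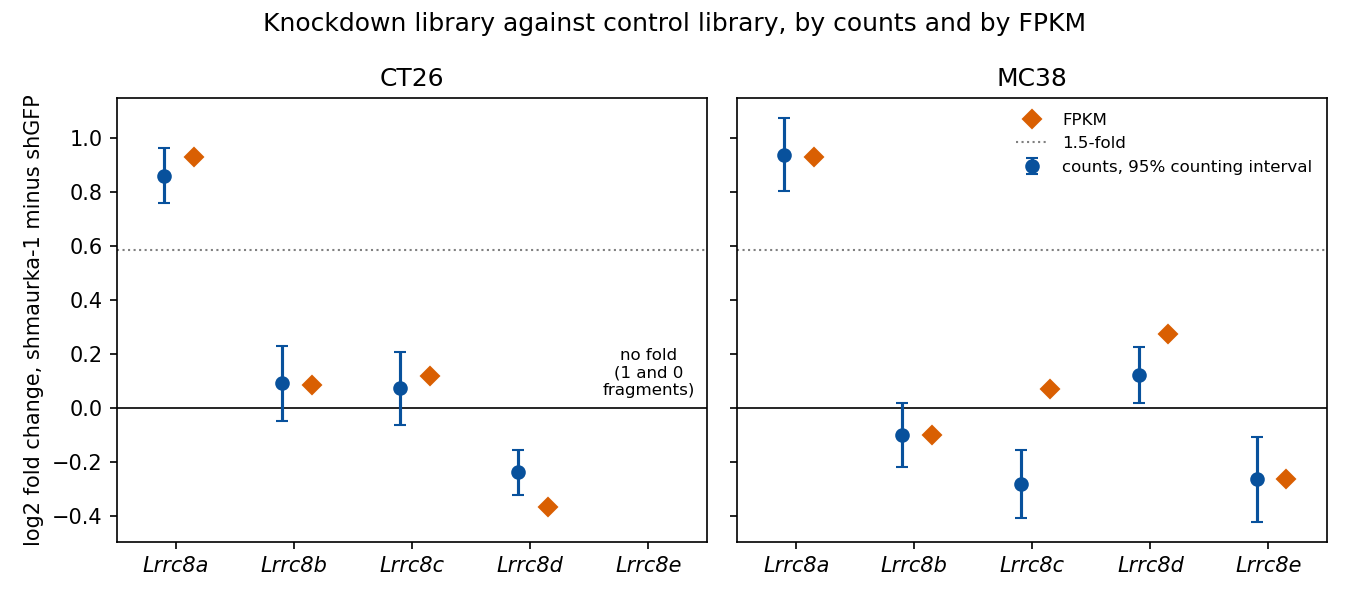
Log2 fold change of each Lrrc8 gene, knockdown library minus control library, in CT26 (left) and MC38 (right), with circles for counts, bars for the 95% counting interval, diamonds for FPKM and a dotted line at 1.5-fold. Lrrc8a lay above the line on both scales (0.86 and 0.93 in CT26, 0.94 and 0.93 in MC38), and Lrrc8c in MC38 had values of opposite sign on the 2 scales.

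The mix of transcripts was described as the share of each gene in the summed FPKM of the 5 genes, since levels of different genes can be compared only per length. The share of Lrrc8a was 16.0% in CT26 shGFP (counting interval 15.1 to 16.8) and 29.3% in CT26 shmaurka-1 (28.2 to 30.4). In MC38 it was 10.5% with shGFP (9.80 to 11.3) and 17.6% with shmaurka-1 (16.7 to 18.5). In CT26 the share of Lrrc8d was the lower in the knockdown library, at 42.7% against 57.0%, while Lrrc8b and Lrrc8c held between 12.1% and 15.6% in both. In MC38 the share of Lrrc8d was 34.0% and 36.3%, and those of Lrrc8b, Lrrc8c and Lrrc8e were the lower in the knockdown library, at 16.6%, 17.8% and 11.7% against 20.2%, 19.2% and 16.0%. With Lrrc8a left out of the sum, the MC38 shares of Lrrc8b (22.6% and 20.2%) and Lrrc8e (17.9% and 14.2%) were again lower with the knockdown. Lrrc8c then held 21.5% and 21.6% by FPKM. The shares of Lrrc8c in MC38 depend on the scale. With 1 length per gene they were 21.6% and 17.0% of the full sum, against 19.2% and 17.8% by FPKM. Lrrc8e held 0.0181% of the full sum in CT26 shGFP.

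The summed FPKM of the 5 genes was 64.5 and 66.9 in the control and knockdown libraries of CT26 and 45.7 and 51.9 in those of MC38. The sum therefore differed by a ratio of 1.04 in CT26 (counting interval 0.999 to 1.08) and 1.14 in MC38 (1.09 to 1.18), less than Lrrc8a alone. With 1 length per gene the ratios were 1.08 and 1.04, and by counts 1.14 and 1.06. Which line differed more thus depends on the scale. Without Lrrc8a the ratio by FPKM was 0.872 in CT26 and 1.05 in MC38. In MC38 it was 0.943 with 1 length per gene and 0.934 by counts, so the direction of the partner sum there depends on the scale, while in CT26 it was below 1 on all 3 scales. The level of Lrrc8a relative to the sum of its possible partners was 0.190 and 0.415 in CT26 and 0.118 and 0.214 in MC38. The obligatory subunit was thus below the sum of the partners in all 4 libraries, and its ratio to them was the higher in each knockdown library.

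The order of the levels by FPKM differed between the lines. In CT26 shGFP it ran Lrrc8d, Lrrc8a, Lrrc8c, Lrrc8b and Lrrc8e, and the intervals of Lrrc8a and Lrrc8c overlapped. In CT26 shmaurka-1 the order was the same and no neighbouring intervals overlapped. In MC38 shGFP the order was Lrrc8d, Lrrc8b, Lrrc8c, Lrrc8e and Lrrc8a, with overlap of Lrrc8b and Lrrc8c. In MC38 shmaurka-1 Lrrc8a stood at position 3, and its interval overlapped those of Lrrc8c and Lrrc8b. The order was the same by FPKM, with 1 length per gene and by counts in CT26 shGFP, but not in the other libraries. Lrrc8a moved to position 2 in MC38 shmaurka-1 with 1 length per gene and by counts, and by counts it was first in CT26 shmaurka-1, at 35.5% against 35.2% for Lrrc8d. Lrrc8c stood before Lrrc8b in MC38 shGFP with 1 length per gene.

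**Figure D3:**
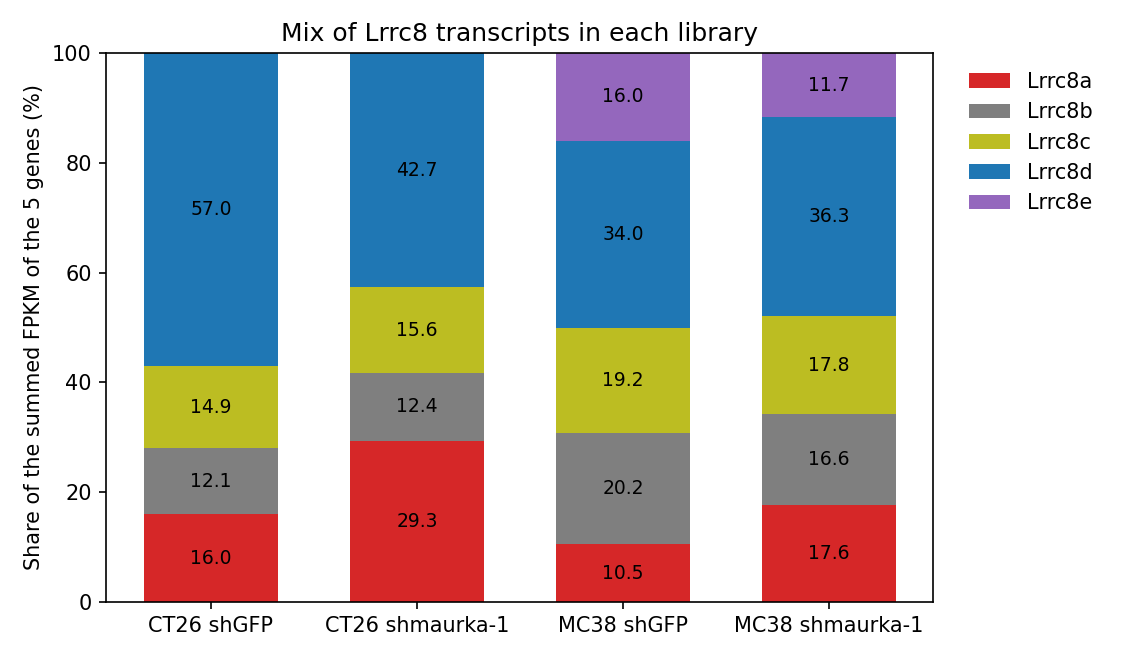
Share of each Lrrc8 gene in the summed FPKM of the 5 genes (vertical axis, percent) in the 4 libraries, with the shares above 5% printed in the bars. The Lrrc8a segment was 16.0% and 29.3% in the CT26 libraries and 10.5% and 17.6% in the MC38 libraries, and the Lrrc8e segment was present in MC38 alone.

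The locus of Lrrc8a called for a check of its counts. The files place it within chr2:30236794-30344266 together with 7 other genes, Nup188, Dolk, Phyhd1, Gm28035, Gm28038, Gm14471 and 1700084E18Rik, and RefSeq places Lrrc8a itself at 30237769 to 30263790 on GRCm38.p6. The counts of the other 4 members were whole multiples of what 1 fragment is worth in each library, whereas those of Lrrc8a lay between 0.32 and 0.46 of a fragment away from a whole number. Gm28035 is a transcript on the same strand that runs on towards Phyhd1. In GENCODE vM39, which is on GRCm39 unlike the positions in the files, it shares 2855 of the 7547 exonic bases of Lrrc8a, or 37.8%. On the opposite strand 1700084E18Rik shares 961 of them, or 12.7%, in the same annotation. RefSeq on GRCm38.p6 instead starts 1700084E18Rik 138 bases upstream of Lrrc8a, from where it runs away from Lrrc8a. Whether it overlaps Lrrc8a thus depends on the annotation. Gm28035 had 10 and 11 fragments in the control and knockdown libraries of CT26 and 34 and 26 in those of MC38, between 0.522% and 4.86% of the fragments of Lrrc8a. For 1700084E18Rik there were 8 and 4 fragments in CT26 and 19 and 22 in MC38. The strand setting of the counting is not given in the sources used here.

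With Gm28035 added to Lrrc8a, the log2 fold change was 0.86 in CT26 (0.76 to 0.96) and 0.90 in MC38 (0.77 to 1.03). Gm28035 had too few fragments for this sum to differ much from Lrrc8a alone. The other 7 genes of the locus summed to a log2 fold change of 0.10 in CT26 (0.05 to 0.15) and -0.12 in MC38 (-0.17 to -0.07). Nup188, a nuclear pore protein and the gene with most fragments there, had 0.11 and -0.13 for the same quantity. Dolk, dolichol kinase, had -0.25 and 0.07, and Phyhd1, a dioxygenase read from 34 to 63 fragments, had 0.52 and 0.01. All 8 genes of the locus summed to a log2 fold change of 0.26 in CT26 (0.21 to 0.30) and 0.02 in MC38 (-0.02 to 0.07). As the deposited counts assign the fragments, Lrrc8a was higher with the knockdown in both lines. The other 7 genes together differed less in CT26 and were lower in MC38, where the sum of all 8 thus hardly differed. All these sums use that assignment, so they cannot show whether fragments were given to the wrong gene. The 5 nearest measured genes on each side spanned -0.50 to 0.59 (CT26) and -0.23 to 0.25 (MC38). Of these 10, Kyat1, a kynurenine aminotransferase, alone was above 1.5-fold in CT26, on 56 and 78 fragments, with a counting interval of 0.09 to 1.12. By FPKM the log2 fold change of Lrrc8a was 0.93 in both lines, close to the values by counts.

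**Figure D4:**
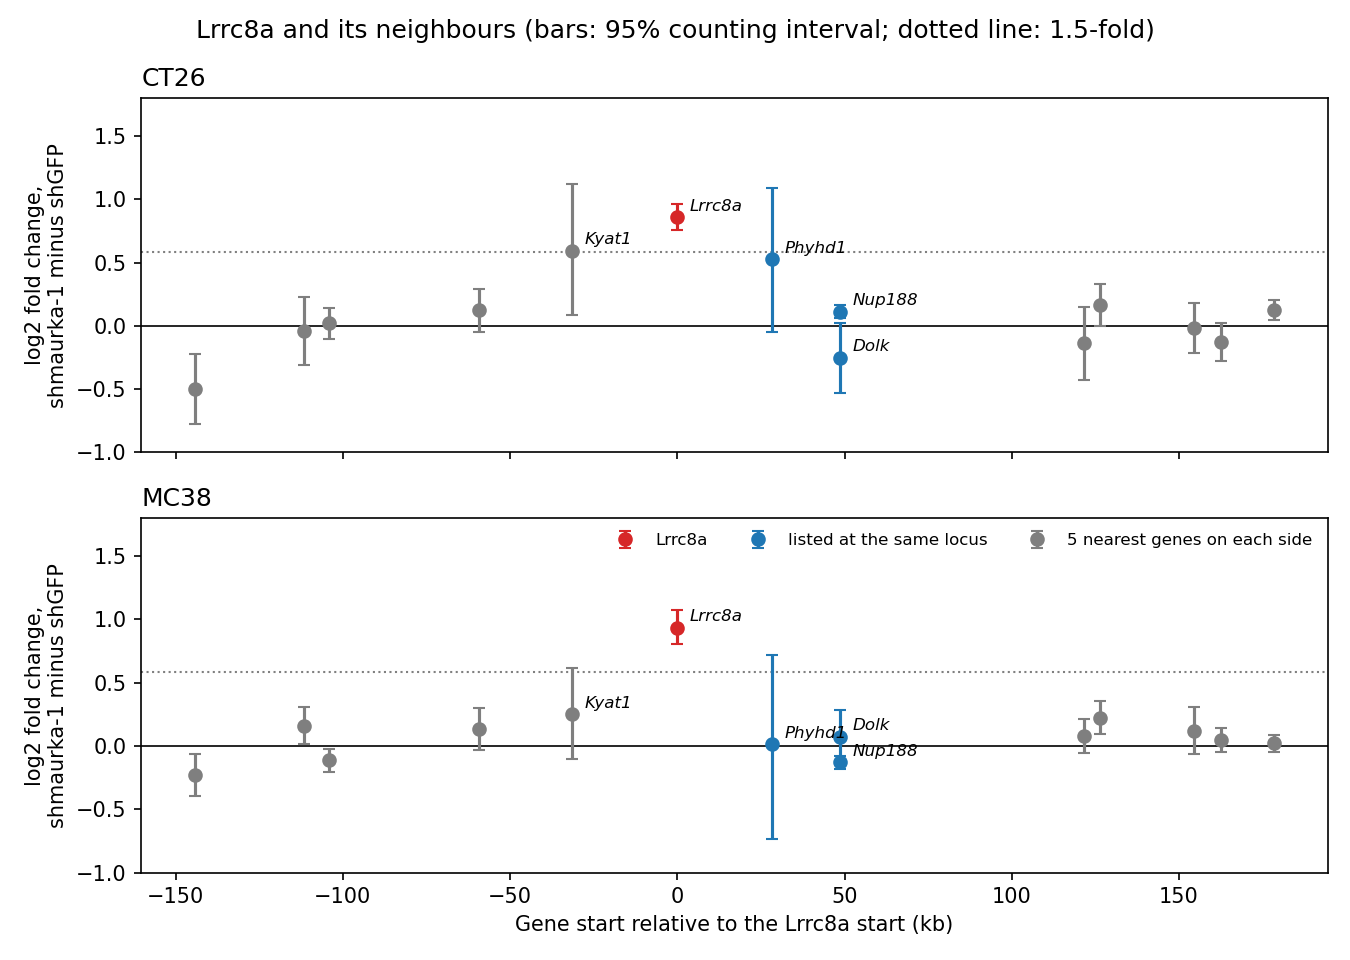
Log2 fold change by counts, knockdown minus control, of Lrrc8a, the genes listed at its locus and the 5 nearest measured genes on each side, against the distance of the gene start from that of Lrrc8a in kb, for CT26 (top) and MC38 (bottom). Genes with at least 10 counts in each library and a RefSeq start are drawn with their 95% counting intervals, and Lrrc8a stands at 0.86 and 0.94 while the others lie between -0.50 and 0.59 in CT26.

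The difference between the lines was not used to choose the genes and was tested over all 11928 genes with the hairpin as a block. The libraries of a line differed in hairpin and none was a replicate, so these p-values do not measure spread between cultures of a line. Lrrc8a was lower in MC38 than in CT26 by a log2 difference of -1.13 (SE 0.12, adjusted p = 1.03e-21, edgeR quasi-likelihood test), a 2.19-fold higher level in CT26. Lrrc8d differed by -0.996 (SE 0.11, adjusted p = 1.12e-19, edgeR), a 1.99-fold higher level in CT26. Lrrc8b and Lrrc8c did not pass the test, with log2 differences of 0.09 (SE 0.12, adjusted p = 0.496) and -0.15 (SE 0.12, adjusted p = 0.281) by edgeR. The 2 calls among 4 tested members stand beside 73.8% of all genes called (39.8% lower in MC38 and 34.0% higher), so a call alone sets no member apart. Lrrc8a was lower in MC38 with either hairpin, by -1.17 within the shGFP libraries and -1.10 within the shmaurka-1 libraries. For Lrrc8d these values were -1.18 and -0.82.

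The scale between the lines moves these values. Scaling by total counts in place of TMM (trimmed mean of M-values) factors shifted the median log2 line difference of all genes by 0.37, and with it Lrrc8b was called at 0.47 (adjusted p = 0.000276, edgeR) and Lrrc8c turned to 0.22 (adjusted p = 0.0923). Relative to the median of all genes, Lrrc8a stood at -1.06, Lrrc8d at -0.92, Lrrc8b at 0.17 and Lrrc8c at -0.07 with TMM.

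Lrrc8e was the member that separated the lines most. It failed the filter on the mean count in each line, since CT26 held at most 1 fragment. Within the shGFP libraries it had 752 fragments in MC38 against 1 in CT26, a ratio of 603 with a counting interval of 108 to 23846. Within the shmaurka-1 libraries it had 612 against 0 fragments, at least 154-fold higher in MC38 against a floor of 3 fragments per library. No test is given, since a filter that Lrrc8e passes is passed through MC38 alone.

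Of the other genes of cell volume control and of cGAMP signalling, 73 were listed in 5 groups and 37 could be tested for a knockdown effect common to both lines, with the line as a block. In this test 1 rose and 3 fell, beside 2.88% of all genes called (1.79% higher and 1.1% lower). The groups were drawn up with earlier results of these data known. The line test called 11 of the 37 (29.7%) as higher and 14 (37.8%) as lower in MC38, near the 34.0% and 39.8% of all genes.

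Organic osmolytes are the small molecules that cells store or release to set their volume, and 5 of 14 listed genes of this kind and of water channels were tested. Akr1b3, aldose reductase, which makes sorbitol, had 1930 and 2297 fragments in the control and knockdown libraries of CT26 and 11808 and 17614 in those of MC38. It rose by 0.50 on the log2 scale (SE 0.09, adjusted p = 4.27e-05, edgeR). Slc6a6, the taurine transporter, had 6669 and 4751 fragments in CT26 and 8696 and 7113 in MC38. It changed by -0.31 (SE 0.09, adjusted p = 0.0392, edgeR). Both directions held in each line, and the group median was 0.04 in CT26 and -0.25 in MC38. Akr1b3 shares its listed locus with 1 other gene and Slc6a6 with 3, so their counts are less certain.

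Of the 7 potassium and cation channels of volume regulation 3 were tested. Kcnn4, a calcium-activated potassium channel that works beside chloride exit, had 883 and 531 fragments in the CT26 libraries and 457 and 323 in the MC38 libraries. It fell, with a log2 change of -0.54 (SE 0.14, adjusted p = 0.00881, edgeR), and it was lower in the knockdown library of both lines. Trpm7, a channel kinase and the most abundant of the 3 by FPKM, had a log2 change of -0.12 (adjusted p = 0.703, edgeR).

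All 7 listed cGAMP genes were tested, since cGAMP is a cargo of some LRRC8 channels. Tmem173, which encodes the cGAMP receptor STING, had 1158 and 693 fragments in the CT26 libraries and 356 and 214 in the MC38 libraries. It fell, with a log2 change of -0.65 (SE 0.14, adjusted p = 0.000617, edgeR). Slc19a1, a folate carrier that also imports cyclic dinucleotides, had a log2 change of 0.04 (adjusted p = 0.961), and Abcc1, an exporter, 0.17 (adjusted p = 0.513), by edgeR.

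No gene passed the knockdown test among the 10 tested of 16 WNK kinases and cation-chloride cotransporters, which take up ions after shrinkage, or among the 12 tested of 29 other anion channels and pannexins. Of the first group Wnk1, a chloride-sensing kinase, had a log2 change of -0.11 (adjusted p = 0.715), and Cab39, a scaffold of the kinases downstream of it, -0.04 (adjusted p = 0.941), by edgeR. Of the second, the endosomal chloride transporters Clcn3 and Clcn5 had -0.03 (adjusted p = 0.963) and -0.07 (adjusted p = 0.864), by edgeR. The group medians were 0.05 and -0.11 for the first and -0.14 and 0.03 for the second, in CT26 and MC38.

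The 4 calls among these lists rest on the edgeR fit with the line as a block, which had 1 residual degree of freedom and borrowed its spread from all genes. None of the 4 was called by the DESeq2 Wald test, by limma on FPKM or without the block, and the highest adjusted p over 10 alternatives was 1.00 for each. Slc6a6 was also lost without a filter and with DESeq2 size factors. The direction of each was the same in all 10.

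The genes whose pattern over the 4 libraries was most like that of Lrrc8a were Ifit1, Prob1 and Lmo4. Likeness was the Euclidean distance of centred log2 levels, among 10034 genes whose mean count reached 50 in both lines, and it was 0.315, 0.341 and 0.381. Ifit1, an interferon-induced gene, differed with the knockdown by 0.58 (CT26) and 0.75 (MC38) on the log2 scale, and Lmo4, a LIM-domain transcription regulator, had 0.59 and 0.72. Prob1 had 0.88 and 0.46 on 83 to 223 fragments. These distances are over 4 libraries and carry no test. The pattern includes the knockdown rise on which Lrrc8a was chosen, so a rise in these genes follows from how they were picked.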

How the data were processed

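The authors deposited a table of FPKM and a table of estimated counts per gene for 4 libraries made with Agilent's SureSelect Strand-Specific kit. The submitters' processing notes name Trimmomatic 0.36, HISAT2, Cufflinks 2.2.1, Cuffdiff and GRCm39, yet 99.8% of 18221 gene positions in the files matched GRCm38.p6 and 9.55% GRCm39. Each deposited count is a multiple of a step per library, and 97.1% to 97.7% of values were whole (within 0.05) after division by it, which gave the fragments. Fold changes within a line were taken from counts scaled by TMM over all genes, with 1 count added, and intervals are exact binomial (95%) from fragments. Counts were rounded and tested in edgeR 4.0.16 (R 4.3.3) with Benjamini-Hochberg adjustment over 11928 genes (threshold 0.05), and the SE is the log2 change over the root of F. Alternatives used limma 3.58.1 and DESeq2 1.42.0. In simulated data with 200 of 11928 genes changed 3-fold, the knockdown test recovered 98.5% and the line test 100%. That simulation gave every gene the same spread, and its knockdown data held no difference between the lines. It checked the code only. The listed genes that were called changed by far less than 3-fold, so it does not show how well such changes are found. The SE and p-values of the main edgeR fit rest on a spread estimated over all genes in these libraries only. The prior degrees of freedom of that fit were infinite, so the spread of the gene itself carried no weight.

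Named genes were the 5 Lrrc8 genes, the genes at and beside the Lrrc8a locus, the 3 genes nearest in pattern and Aurka. Of each list, the called genes and the 2 most abundant of the tested genes were also named, so an abundant untested gene could be left out. Epcam and Krt20 were named after their values were seen. The members and lists were chosen with earlier results of these data known. TMM factors were first computed over all genes; factors over the tested genes alone were tried after seeing the data and are given as an alternative. No column of per-sample values was left unmapped. No protein sequence was used here.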

Additional observations from a re-analysis of the deposited data

Results flagged for a closer look

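Of the members other than Lrrc8a, 3 had knockdown log2 fold changes of opposite sign in the lines, which drew attention to them. The MC38 value minus the CT26 value was -0.19 for Lrrc8b, -0.35 for Lrrc8c and 0.36 for Lrrc8d. The difference was not tested for any of them, since each line has 1 pair of libraries. For Lrrc8b the counting interval spanned 0 in both lines, for Lrrc8c it spanned 0 in CT26, and the MC38 value of Lrrc8c had the other sign by FPKM, where both lines were above 0.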

How the results depend on the processing

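Lrrc8a kept its direction in 9 of 9 alternatives in each line, spanning 0.83 to 0.93 (CT26) and 0.81 to 0.94 (MC38). Lrrc8c in MC38 turned to 0.0717 by FPKM and 0.0645 by FPKM with a pseudocount of 1. The share of Lrrc8a by counts without length was 22.1% and 35.5% in the CT26 libraries and 13.1% and 23.5% in the MC38 libraries, and with 1 length per gene it was 28.0% in CT26 shmaurka-1. The knockdown test called 344 genes, against 29 by the DESeq2 Wald test, 8 by limma on FPKM (949 genes at an unadjusted p under 0.05) and 0 by edgeR with no replicate block for the line (11 genes at an unadjusted p under 0.05). The causes were not tested. With TMM factors over the tested genes, an alternative added after seeing the data, it called 333, and the line difference was -1.05 for Lrrc8a and -0.92 for Lrrc8d. Of the knockdown calls 61.9% were higher, against 49.1% with total-count scaling, and of the line calls 46.0% against 64.7%. The line difference of Lrrc8c was 0.22 with total-count scaling. Lrrc8a and Lrrc8d were called between the lines in 11 of 11 alternative tests, Lrrc8b in 1 and Lrrc8c in 0. The highest adjusted p was 0.0110 for Lrrc8a (edgeR with no replicate block) and 0.00249 for Lrrc8d (limma on FPKM). The ratio of the summed level without Lrrc8a in MC38, 1.05 by FPKM, turned to 0.943 with 1 length per gene and 0.934 by counts. Of 207 alternative values 152 stayed within the bounds of the reported one. With 1 library per condition no replicate could be left out, and depth limits Lrrc8e in CT26.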
